A study of Mus musculus with 10 samples.

Results

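The 39 genes described here encode proteins of the heart muscle sarcomere and of the Z-disc that bounds it. They were taken from the array files as every non-control probe whose gene name equalled a member's symbol, which gave 82 probes, of which 78 passed the filter on dim probes. All 39 members had at least 1 such probe, out of 20607 genes measured in all, and the probe that represents each member was well above background on all 10 arrays. By role, 11 belong to the thin filament, 6 to the thick filament and M-band, 13 to the Z-disc, 6 to a group of desmin, Xin and LIM proteins, and 3 to the myosin chaperone and muscle ring finger ligases.

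The sarcomere is the contractile unit of striated muscle, in which myosin of the thick filament pulls on actin of the thin filament. Troponin and tropomyosin sit on the thin filament and let myosin bind when calcium enters the cell, while the Z-disc anchors thin filaments of neighbouring sarcomeres and carries many proteins that sense stretch. Several of these proteins exist as cardiac, slow skeletal and fast skeletal forms encoded by separate genes, and others as splice forms of one gene, and in the adult mouse heart the cardiac forms predominate.

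The samples were cardiac tissue of male mice on the C57BL/6 background. In the HIPK2 knockout group (5 samples), CRISPR editing of the embryo had deleted a stretch of the second exon of Hipk2 and shifted its reading frame, and the mice came from a bred line that carries the deletion (HIPK2-/-). The wild-type group (5 samples) was C57BL/6 without the deletion, and neither group received a treatment that the labels name. The part of the heart, the age of the mice and whether each sample came from a separate mouse are not given in the labels, so the p-values speak only to the spread between the samples at hand.

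Each sample was hybridised alone to a 1-colour Agilent array. Signals are given as log2 of the processed intensity relative to the 75th percentile of its array (percentile scaling), so that 0 is the 75th percentile and 1 unit is a doubling. Probes differ in how strongly they bind, and signals of different probes do not rank the transcripts. Fold changes are log2 ratios of knockout over wild type, each given ± the SE that limma estimated, and adjusted p-values are Benjamini-Hochberg values over all 20607 genes, with a threshold of 0.05. The comparisons of genes, of member probes and of marker list means were repeated after quantile normalization, which forces the same distribution of signal on every array.

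The 75th percentile itself averaged 378 ± 75.3 intensity units in the knockout samples and 499.5 ± 31.9 in the wild-type samples (± SD over 5 samples a group, two-sided exact permutation p = 0.00794, the smallest this design allows, and 0.0317 after adjustment over 12 array measures). Per the file headers, wild-type samples 1 and 2 lay on one slide and the other 8 samples on a second slide, scanned separately. On that second slide, wild-type samples 3 to 5 shared a row with knockout sample 1, and knockout samples 2 to 5 filled the other row, so row and genotype can hardly be told apart. The Hipk2 probe differed by 0.04 ± 0.16 (adjusted p = 0.902), and its position relative to the deletion was not analysed here. All 8 cardiomyocyte markers were measured, with a mean log2 signal of 6.60 ± 0.14 in knockout samples, against 6.31 ± 0.15 in wild-type samples (exact permutation p = 0.0159, adjusted over the 12 measures 0.0381). After quantile normalization that mean was 15.22 ± 0.03 in knockout samples, against 15.19 ± 0.04 in wild-type samples (exact permutation p = 0.175, adjusted over 9 marker lists 0.235).

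Sequences are shown for 3 probes of genes described below, the second probe of Tnnt1, the slow skeletal troponin T, and a pair of probes of Tpm1, the main cardiac tropomyosin, whose fold changes differ in sign. Positions are on mouse build mm9, as the array files give them, and the capitals mark the stretch that hybridises, here the whole 60 bases.
Tnnt1 probe at chr7:4460086-4460145, minus strand: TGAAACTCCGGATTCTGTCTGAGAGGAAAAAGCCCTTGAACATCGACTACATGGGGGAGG
Tpm1 bright probe at chr9:66878844-66878903, minus strand: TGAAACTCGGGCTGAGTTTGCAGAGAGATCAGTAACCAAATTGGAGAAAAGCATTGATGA
Tpm1 dim probe at chr9:66880274-66880333, minus strand: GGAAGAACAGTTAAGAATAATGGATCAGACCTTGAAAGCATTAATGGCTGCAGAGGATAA
The other Tnnt1 probe, which represents the gene, lies at chr7:4456265-4456324. The array design assigns the 2 Tpm1 probes to different transcripts of the gene, and exon annotation of mm9 was not used here.

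Of the 39 members, 3 passed the threshold, 2 higher and 1 lower in knockout, or 7.69% of members against 4.94% of all genes (1.97% higher and 2.97% lower). Those higher were Tnnt1 and Tcap, which encodes telethonin, the cap on titin at the Z-disc, and the lower one was Tpm3, the slow skeletal and cytoplasmic tropomyosin gene. The other 36 members did not pass. Fold changes were above 0 in 29 of 39 members (74.4%, against 54.1% of all genes), but in 18 members (46.2%, against 49.2%) after quantile normalization and in 9 (23.1%, against 9.21%) with no scaling between arrays. At an unadjusted p under 0.05 stood 16 members (41%), against 5602 of all genes (27.2%), and after quantile normalization 9 members (23.1%, against 27.5% of all genes). The 5 knockout values lay wholly to one side of the 5 wild-type values in 6 members, 5 higher and 1 lower, or 15.4% of members against 8.98% of all genes (4.54% higher and 4.44% lower). After quantile normalization 3 members lay wholly higher and 3 wholly lower, or 7.69% of members each way. The share of all genes without overlap was not counted under that scaling.

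After quantile normalization 3 members again passed, Tnnt1 higher and Tpm3 and Mypn lower, against 6.36% of all genes (2.29% higher and 4.07% lower). On the second slide alone the 2 that passed were Tnnt1, higher, and Tpm3, lower, against 2.22% of all genes (0.679% higher and 1.54% lower). Normexp background correction called 11 members, 9 higher and 2 lower, against 15.1% of all genes (10.8% higher and 4.26% lower). With no scaling between arrays 9 members passed, all lower in knockout, against 28.7% of all genes. Of all genes, 31 then passed as higher and 5880 as lower, so that direction was not particular to the members.

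**Figure D1:**
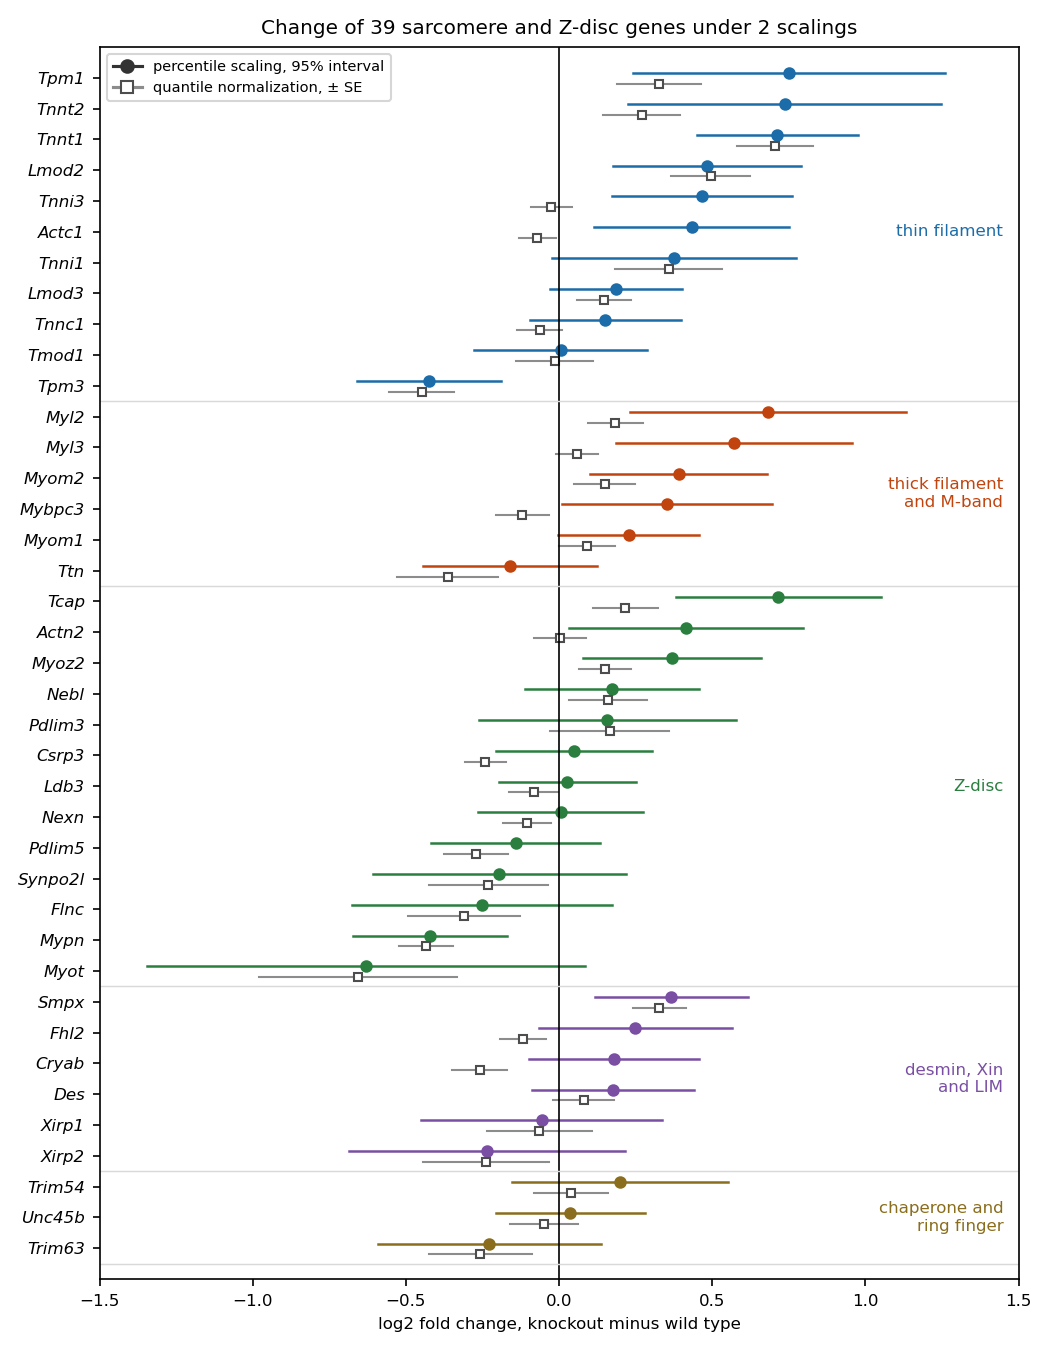
Log2 fold change (knockout minus wild type) of each of the 39 members, grouped by role. Filled circles with 95% intervals are under percentile scaling and open squares with SE bars are after quantile normalization; Tnnt1 stays near 0.71 under both, while Tcap, Tnni3 and Actc1 move towards 0.

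Tnnt1 had the smallest adjusted p of the 39 members. Its signal was 3.67, 3.79, 3.35, 3.51 and 3.94 in knockout samples 1 to 5, against 3.08, 2.82, 3.06, 2.93 and 2.80 in wild-type samples 1 to 5. Every knockout sample lay above every wild-type sample, and the wild-type samples on the 2 slides had similar means, 2.95 for samples 1 and 2 and 2.93 for samples 3 to 5. In the row that both genotypes share, knockout sample 1 lay above wild-type samples 3 to 5. Tnnt1 rose by 0.71 ± 0.12 on the log2 scale (1.64-fold, limma adjusted p = 0.0147). After quantile normalization the fold change was 0.71 ± 0.12 (limma adjusted p = 0.0159), and on the second slide alone, with 5 knockout and 3 wild-type samples, it was 0.72 ± 0.14 (limma adjusted p = 0.0442). With no scaling between arrays it was 0.29 and did not pass (limma adjusted p = 0.289).

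The Tnnt1 probe whose sequence is printed above gave 2.59, 2.70, 2.10, 2.40 and 2.79 in knockout samples, against 2.17, 1.97, 1.95, 1.84 and 1.62 in wild-type samples. Here the groups overlapped, since knockout sample 3 lay below wild-type sample 1, and the probe rose by 0.61 ± 0.14 (limma adjusted p = 0.0426 over 30692 probes, of which 4.44% passed), and by 0.61 ± 0.14 after quantile normalization (adjusted p = 0.0382). Leaving out each sample in turn, the gene passed in all 10 fits, with adjusted p between 0.0142 and 0.0447. With the slide and the row of each array as terms, a limma fit in which 0 genes passed (2788 at an unadjusted p under 0.05), the Tnnt1 fold change was 0.74 (adjusted p = 0.264).

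The fast skeletal muscle markers, a list without the slow skeletal Tnnt1, had a higher list mean in knockout. Of 14 listed, 11 were measured and Myh1, Myh2 and Actn3 were not above background often enough, and none of the 11 passed the threshold. The log2 of their summed signal ran from 7.97 to 8.50 in knockout and from 6.70 to 7.82 in wild type, most of it from Myh8, the perinatal myosin heavy chain, at 7.97 ± 0.23 in knockout samples and 7.10 ± 0.71 in wild-type samples. Whether that probe also binds transcripts of related myosins was not tested. The list mean, unlike the sum, weighs each gene equally, and the fold changes in it ran from -0.37 for Mybpc2 to 1.66 for Pvalb. Pvalb was at -0.70 ± 1.96 in knockout samples and -2.37 ± 1.13 in wild-type samples. The mean of the list was 0.39 ± 0.21 in knockout samples, against -0.06 ± 0.02 in wild-type samples (± SD over 5 samples a group, exact permutation p = 0.00794, adjusted 0.0317, and adjusted 0.0357 after quantile normalization), and the part of such cells in the Tnnt1 value was not tested. In bulk tissue more cells of one type and more RNA per cell cannot be told apart.

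RefSeq (GRCm38.p6) listed 45 promoters for 32 of the 39 members; Lmod3, Tcap, Myom2, Myot, Nexn, Cryab and Xirp1 had none in the table used. The 250 bases before the start of Tnnt1 are shown beside those of Tnnt2, the cardiac troponin T gene, because Tnnt1 passed the threshold under both scalings and its cardiac paralog under neither, a difference that was not tested. Capitals mark matches on either strand to an E-box (CANNTG), a TATA motif (TATAAA), an M-CAT motif (CATTCCT), a CArG box or a MEF2 motif, and no match overlaps another in these 2 sequences.
Tnnt1 promoter at chr7:4515976-4516225, minus strand: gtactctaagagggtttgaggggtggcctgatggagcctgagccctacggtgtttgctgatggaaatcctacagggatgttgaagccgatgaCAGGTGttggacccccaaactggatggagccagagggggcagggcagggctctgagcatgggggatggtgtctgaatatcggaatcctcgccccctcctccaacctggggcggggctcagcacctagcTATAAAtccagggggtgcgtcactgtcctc
Tnnt2 promoter at chr1:135836084-135836333, plus strand: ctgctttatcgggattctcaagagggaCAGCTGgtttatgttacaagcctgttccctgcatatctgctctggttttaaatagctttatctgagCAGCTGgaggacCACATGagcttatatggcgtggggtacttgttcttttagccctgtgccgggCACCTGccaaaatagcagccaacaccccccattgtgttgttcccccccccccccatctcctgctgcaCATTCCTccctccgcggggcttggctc
Tnnt1 holds a TATA motif 30 to 25 bases before its start and 1 E-box, and Tnnt2 holds 4 E-boxes and an M-CAT motif 27 to 21 bases before its start. Only a Tnnt2 promoter that holds an M-CAT motif was printed, so the presence of that motif was set by the choice. No such condition was set for Tnnt1. Over the 45 member promoters, which overlap where a gene has several starts, an E-box was found in 77.8% against 66.2% of all 32851 promoters, and a TATA motif in 13.3% against 12.4%. The M-CAT motif was in 13.3% against 4.51%, the CArG box in 17.8% against 1.47%, and the MEF2 motif in 15.6% against 2.92%. Members with a CArG box were Actc1, Fhl2, Ldb3, Myl3, Myom1 and Nebl, and a TATA match overlapped a MEF2 or CArG match in 1 member promoter. These are matches of letters in a fixed window and not mapped binding sites.

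Within the thin filament, the genes of cardiac troponin and tropomyosin had higher means in knockout under percentile scaling, at their representing probes, that did not pass the threshold. After quantile normalization Tnnt2 and Tpm1 were at 0.27 and 0.33, and Tnni3 and Tnnc1 at -0.03 and -0.06. The median fold change of the 11 thin filament genes was 0.43, with 10 above 0, against 0.03 for all genes. After quantile normalization the median was 0.15, with 6 above 0, and on the second slide alone it was 0.27. Under percentile scaling 1 member rose (Tnnt1), 1 fell (Tpm3) and 9 did not pass, and the same 2 members were the ones that passed after quantile normalization.

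Tpm3 had signals of 3.98, 3.96, 3.98, 3.86 and 4.12 in knockout samples, against 4.21, 4.16, 4.51, 4.55 and 4.59 in wild-type samples. All knockout samples lay below all wild-type samples, the nearest being knockout sample 5 and wild-type sample 2. Tpm3 fell by 0.42 ± 0.11 (1.34-fold lower in knockout, limma adjusted p = 0.0479), by 0.45 ± 0.11 after quantile normalization (adjusted p = 0.0398), and by 0.57 ± 0.09 on the second slide alone (adjusted p = 0.0259). The call passed in 2 of the 10 fits that left out a sample, those without wild-type sample 1 and without wild-type sample 2, and the adjusted p reached 0.105 without wild-type sample 4. The 4 other Tpm3 probes had fold changes of -0.49, -0.29, -0.15 and -0.08, all below 0, and none of the 5 probes passed over all probes (adjusted p = 0.0514 for the representing one).

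The Tpm1 probes had fold changes on both sides of 0, and of these the one that passed the threshold was a dim probe, which was lower in knockout. The bright probe printed above read 8.99, 8.97, 9.33, 9.22 and 8.75 in knockout samples, against 7.70, 7.75, 8.74, 8.59 and 8.73 in wild-type samples. The groups did not overlap, but knockout sample 5 and wild-type sample 3 differed by little and the wild-type samples of the first slide stood about 1 unit below the rest. The fold change was 0.75 ± 0.23 (limma adjusted p = 0.0805), 0.33 ± 0.14 after quantile normalization (adjusted p = 0.155) and 0.36 on the second slide alone (adjusted p = 0.183).

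The dim Tpm1 probe read -3.14, -3.19, -3.10, -3.38 and -3.00 in knockout samples, against -2.72, -2.55, -2.76, -2.68 and -2.75 in wild-type samples. All knockout samples lay below all wild-type samples, and the probe fell by 0.47 ± 0.09 (limma adjusted p = 0.0236 over all probes), and by 0.53 ± 0.09 after quantile normalization (adjusted p = 0.0165). It was well above background on 4 of 5 knockout and 5 of 5 wild-type arrays. The other 2 Tpm1 probes differed by 0.14 ± 0.11 and -0.11 ± 0.11. The difference between probes was not tested.

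Tnnt2, the subunit that ties cardiac troponin to tropomyosin, read 9.26, 9.25, 9.77, 9.52 and 9.05 in knockout samples, against 8.09, 8.07, 9.08, 8.86 and 9.05 in wild-type samples. Knockout sample 5 and wild-type sample 5 were equal, and wild-type samples 1 and 2 stood about 1 unit below the others. The fold change was 0.74 ± 0.23 (limma adjusted p = 0.0845), 0.27 ± 0.13 after quantile normalization (adjusted p = 0.194) and 0.37 on the second slide alone (adjusted p = 0.235).

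Tnni3, the inhibitory subunit of cardiac troponin, read 9.19, 9.22, 9.41, 9.48 and 9.03 in knockout samples, against 8.60, 8.50, 9.09, 8.82 and 8.97 in wild-type samples. The groups overlapped only between knockout sample 5 and wild-type sample 3, and the fold change of 0.47 ± 0.13 (limma adjusted p = 0.0662) became -0.03 ± 0.07 after quantile normalization. Tnni3 and Tnnt1 are neighbouring genes on chromosome 7. Actc1, cardiac alpha-actin and the body of the thin filament, read 9.54, 9.46, 9.83, 9.80 and 9.26 in knockout samples, against 8.90, 8.87, 9.32, 9.28 and 9.36 in wild-type samples. Knockout sample 5 lay within the wild-type range, and the fold change was 0.43 ± 0.14 (limma adjusted p = 0.0961), or -0.07 ± 0.06 after quantile normalization.

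Lmod2, a leiomodin that nucleates and lengthens thin filaments, read 2.27, 2.24, 2.06, 2.37 and 2.08 in knockout samples, against 1.42, 1.39, 2.02, 1.90 and 1.88 in wild-type samples. The groups did not overlap, with knockout sample 3 and wild-type sample 3 closest, and the first-slide samples of wild type were lowest. The fold change was 0.48 ± 0.14 (limma adjusted p = 0.068) and 0.49 ± 0.13 after quantile normalization (adjusted p = 0.0506). On the second slide alone it was 0.27 (adjusted p = 0.186).

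The other thin filament genes lay closer to 0. Tnni1, the slow skeletal troponin I, differed by 0.38 ± 0.18, and its second, dimmer probe by -0.29 ± 0.41. Lmod3, a leiomodin best known from skeletal muscle, differed by 0.19 ± 0.10, and Tnnc1, the calcium-binding subunit of cardiac and slow troponin, by 0.15 ± 0.11. Tmod1, which caps the pointed end of the thin filament, differed by 0.01 ± 0.13 (95% interval -0.28 to 0.29). After quantile normalization the representing probes gave 0.36 for Tnni1, 0.15 for Lmod3, -0.06 for Tnnc1 and -0.01 for Tmod1.

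**Figure D2:**
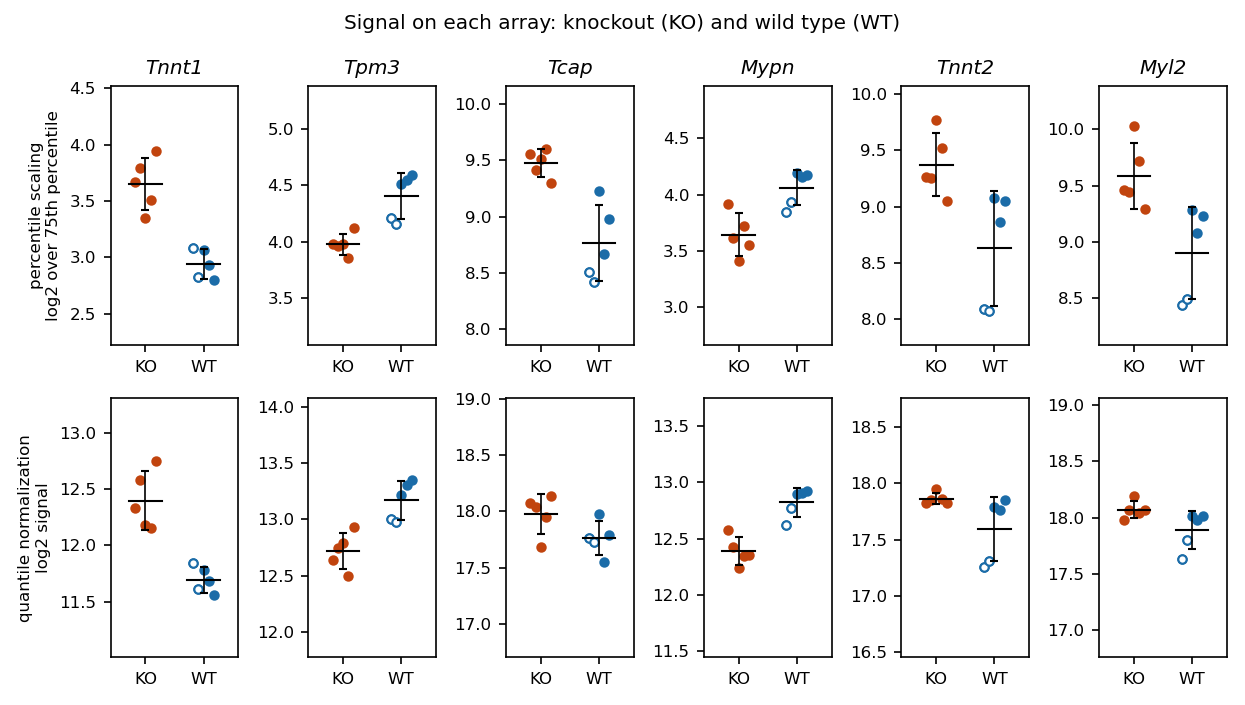
Signal of 6 members on each array, knockout (KO, red) left of wild type (WT, blue), with mean and SD; open circles are wild-type samples 1 and 2, on the first slide. The upper panels are under percentile scaling and the lower after quantile normalization, every panel spanning 2.3 log2 units; Tnnt1 and Tpm3 separate the genotypes in both, Mypn after quantile normalization and Tcap and Myl2 under percentile scaling.

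The thick filament and M-band held no member that passed the threshold under either scaling. The median of its 6 genes was 0.37, with 5 above 0, and 0.07 after quantile normalization, with 4 above 0, and 0.23 on the second slide alone. Myl2, the regulatory light chain of ventricular myosin, read 9.46, 9.44, 10.03, 9.72 and 9.29 in knockout samples, against 8.44, 8.49, 9.28, 9.08 and 9.23 in wild-type samples. The groups just missed each other, at knockout sample 5 and wild-type sample 3, and the fold change was 0.68 ± 0.20 (limma adjusted p = 0.074), 0.18 ± 0.09 after quantile normalization (adjusted p = 0.216).

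Myl3, the essential light chain of ventricular myosin, read 9.74, 9.57, 10.02, 9.93 and 9.44 in knockout samples, against 8.78, 8.82, 9.56, 9.31 and 9.37 in wild-type samples. Knockout sample 5 fell below wild-type sample 3, and the fold change was 0.57 ± 0.18 (limma adjusted p = 0.0797), or 0.06 ± 0.07 after quantile normalization. Mybpc3, cardiac myosin-binding protein C, which regulates the myosin heads, read 9.18, 8.86, 9.31, 9.35 and 8.93 in knockout samples, against 8.41, 8.54, 9.15, 8.82 and 8.93 in wild-type samples. Knockout samples 1, 3 and 4 lay above all wild-type samples and the other two did not, and the fold change was 0.35 ± 0.16 (limma adjusted p = 0.172) and -0.12 ± 0.09 after quantile normalization.

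Myom2, an M-band protein that links thick filaments, read 7.91, 7.66, 7.34, 7.63 and 7.59 in knockout samples, against 7.16, 6.96, 7.56, 7.18 and 7.32 in wild-type samples. Only knockout sample 3 lay inside the wild-type range, and the fold change was 0.39 ± 0.13 (limma adjusted p = 0.0974) and 0.15 ± 0.10 after quantile normalization. Myom1, its M-band paralog, differed by 0.23 ± 0.10 at the brighter probe and by -0.32 ± 0.11 at the dimmer one. Ttn, the giant spring that spans from Z-disc to M-band, differed by -0.16 ± 0.13, or -0.36 ± 0.16 after quantile normalization. Its 5 other probes ran from -0.49 to 0.01, and none passed.

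The Z-disc genes showed no common direction. Their median was 0.03, equal to the 0.03 of all genes, with 8 above 0 and 5 below, and -0.10 after quantile normalization, with 5 above 0. Fold changes ran from -0.63 for Myot to 0.72 for Tcap, so the class held both the lowest fold change of the 39 members and 1 of the 3 that passed.

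Tcap read 9.56, 9.41, 9.51, 9.60 and 9.30 in knockout samples, against 8.51, 8.42, 9.23, 8.67 and 8.98 in wild-type samples. The groups did not overlap, knockout sample 5 and wild-type sample 3 being closest, and wild-type samples 1 and 2 were the lowest of all. Tcap rose by 0.72 ± 0.15 (1.64-fold, limma adjusted p = 0.0301). After quantile normalization it read 18.07, 18.04, 17.68, 17.95 and 18.14 log2 units in knockout samples, against 17.76, 17.73, 17.98, 17.55 and 17.79 in wild-type samples. The groups then overlapped, and the fold change of 0.22 ± 0.11 did not pass (limma adjusted p = 0.216). With no scaling between arrays it was 0.29 (adjusted p = 0.191). On the second slide alone the percentile-scaled fold change was 0.52 ± 0.14 (adjusted p = 0.086), and the call passed in 3 of the 10 fits that left out a sample (those without knockout sample 3, knockout sample 5 or wild-type sample 3), with adjusted p up to 0.0714.

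Mypn encodes myopalladin, which tethers nebulin-type proteins and alpha-actinin at the Z-disc. It read 3.92, 3.62, 3.41, 3.72 and 3.55 in knockout samples, against 3.85, 3.94, 4.19, 4.16 and 4.18 in wild-type samples. Only knockout sample 1 lay above the lowest wild-type sample, and the fold change was -0.42 ± 0.11 (limma adjusted p = 0.0585). After quantile normalization the groups no longer overlapped and Mypn fell by 0.43 ± 0.09 (limma adjusted p = 0.0251).

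Actn2, the alpha-actinin that cross-links thin filaments at the Z-disc, read 8.80, 8.73, 8.94, 8.97 and 8.58 in knockout samples, against 7.94, 8.0, 8.75, 8.61 and 8.65 in wild-type samples. Knockout samples 2 and 5 lay within the wild-type range, and the fold change was 0.41 ± 0.17 (limma adjusted p = 0.155) and 0.00 ± 0.09 after quantile normalization. Its other probes differed by 0.11 ± 0.09 and -0.31 ± 0.29. Myoz2, a calsarcin that binds calcineurin and alpha-actinin, read 7.47, 7.46, 7.35, 7.62 and 7.29 in knockout samples, against 6.76, 6.80, 7.35, 7.24 and 7.20 in wild-type samples. Knockout sample 5 lay below wild-type sample 3 and knockout sample 3 was level with it, and the fold change was 0.37 ± 0.13 (limma adjusted p = 0.111). Its second probe gave 0.35 ± 0.11 and its dimmest probe -0.05 ± 0.15.

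Of the other Z-disc genes, Myot (myotilin, an actin-bundling protein) differed by -0.63 ± 0.32, with a wide spread between samples in both genotypes, 3.57 ± 0.62 in knockout samples, against 4.20 ± 0.54 in wild-type samples (± SD, 5 a group). Flnc, filamin C, which joins actin to the cell membrane, differed by -0.25 ± 0.19, and Synpo2l, a synaptopodin-like actin binder, by -0.20 ± 0.19. Pdlim5 and Pdlim3, PDZ and LIM proteins of the Z-disc, differed by -0.14 ± 0.13 and 0.16 ± 0.19. Csrp3, muscle LIM protein, differed by 0.05 ± 0.12, but after quantile normalization it was -0.24 ± 0.07 (adjusted p = 0.061), with every knockout sample below every wild-type sample.

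Ldb3 (cypher, which binds alpha-actinin) differed by 0.03 ± 0.10 at its brighter probe and by -0.12 ± 0.10 at the other, and Nexn (nexilin, an actin binder) by 0.00 ± 0.12 and -0.01 ± 0.12. Nebl, the nebulette gene, differed by 0.17 ± 0.13 at the probe that represents it. One of its dimmer probes read -2.31, -2.42, -2.68, -2.74 and -2.49 in knockout samples, against -3.12, -2.98, -2.91, -3.01 and -3.03 in wild-type samples. At that probe the groups did not overlap and the signal rose by 0.48 ± 0.10 (limma adjusted p = 0.028 over all probes), although after quantile normalization it did not pass (0.42 ± 0.12, adjusted p = 0.0611), while the 3 other kept Nebl probes lay between 0.03 and 0.23.

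**Figure D3:**
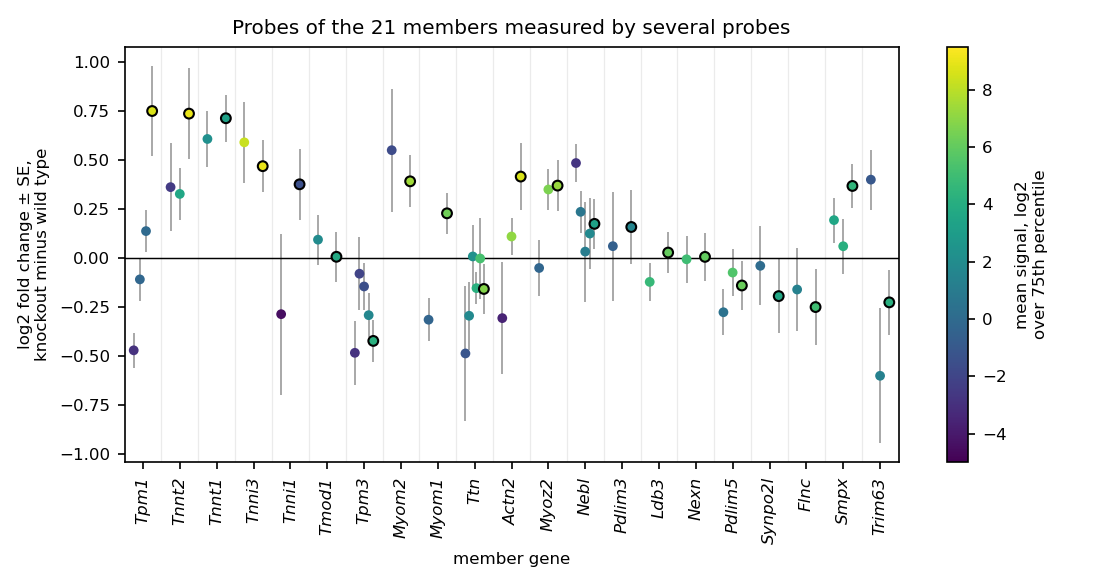
Log2 fold change with SE (knockout minus wild type) at each kept probe of the 21 members with several, coloured by mean signal; the circled probe, the brightest, represents the gene. In 9 of the 21 the probes lie on both sides of 0, and Tpm1 spans from -0.47 to 0.75.

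Over all kept member probes, 4 were called higher (both of Tnnt1, that of Tcap and the dim one of Nebl) and 1 lower (the dim one of Tpm1), against 4.44% of all kept probes. After quantile normalization 2 were called higher (both of Tnnt1) and 3 lower (the dim one of Tpm1 and those that represent Tpm3 and Mypn), against 5.51%. Probes of 9 members differed in sign, those of Tpm1, Tnni1, Myom1, Ttn, Actn2, Myoz2, Ldb3, Nexn and Trim63, and 18 members rest on 1 kept probe.

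Among desmin, Xin and LIM proteins none of 6 passed under either scaling, with a median of 0.18, or -0.09 after quantile normalization. Smpx, a small stretch-responsive muscle protein, read 4.89, 4.59, 4.60, 4.80 and 4.38 in knockout samples, against 4.19, 4.16, 4.20, 4.43 and 4.44 in wild-type samples. Only knockout sample 5 lay inside the wild-type range, and the fold change was 0.37 ± 0.11 (limma adjusted p = 0.0797), and 0.33 ± 0.09 after quantile normalization with no overlap (adjusted p = 0.0518). Fhl2, a LIM-only cofactor bound to titin, read 8.36, 8.14, 8.44, 8.40 and 7.93 in knockout samples, against 7.68, 7.78, 8.22, 8.18 and 8.17 in wild-type samples. The groups overlapped, and the fold change of 0.25 ± 0.14 became -0.12 ± 0.08 after quantile normalization.

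Des, desmin, the intermediate filament that ties Z-discs together, read 5.55, 5.68, 5.65, 5.89 and 5.52 in knockout samples, against 5.24, 5.27, 5.73, 5.65 and 5.52 in wild-type samples. Wild-type samples 1 and 2 were lowest and the groups otherwise overlapped, and the fold change was 0.18 ± 0.12 (95% interval -0.09 to 0.44). Cryab, the small heat shock protein that chaperones desmin, differed by 0.18 ± 0.13, or -0.26 ± 0.09 after quantile normalization. Xirp1 and Xirp2, actin-binding Xin-repeat proteins, differed by -0.06 ± 0.18 and -0.24 ± 0.20.

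The 3 genes of myosin folding and turnover did not pass either. Trim63, the ligase MuRF1, read 4.09, 4.00, 3.92, 4.18 and 4.04 in knockout samples, against 3.97, 4.76, 4.62, 4.04 and 3.97 in wild-type samples. Wild-type samples 2 and 3 stood above all others, and the fold change was -0.23 ± 0.17 at this probe, -0.60 ± 0.34 at a dimmer one and 0.40 ± 0.15 at the dimmest. Trim54, the ligase MuRF3, read 6.61, 6.53, 6.90, 6.94 and 6.45 in knockout samples, against 6.18, 6.13, 6.79, 6.60 and 6.74 in wild-type samples. The groups overlapped, with wild-type samples 1 and 2 lowest, and the fold change was 0.20 ± 0.16. Unc45b, a myosin chaperone, read 5.33, 5.33, 5.47, 5.42 and 5.31 in knockout samples, against 5.01, 5.28, 5.39, 5.64 and 5.38 in wild-type samples. All knockout values lay inside the wild-type range, and the fold change was 0.04 ± 0.11.

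**Figure D4:**
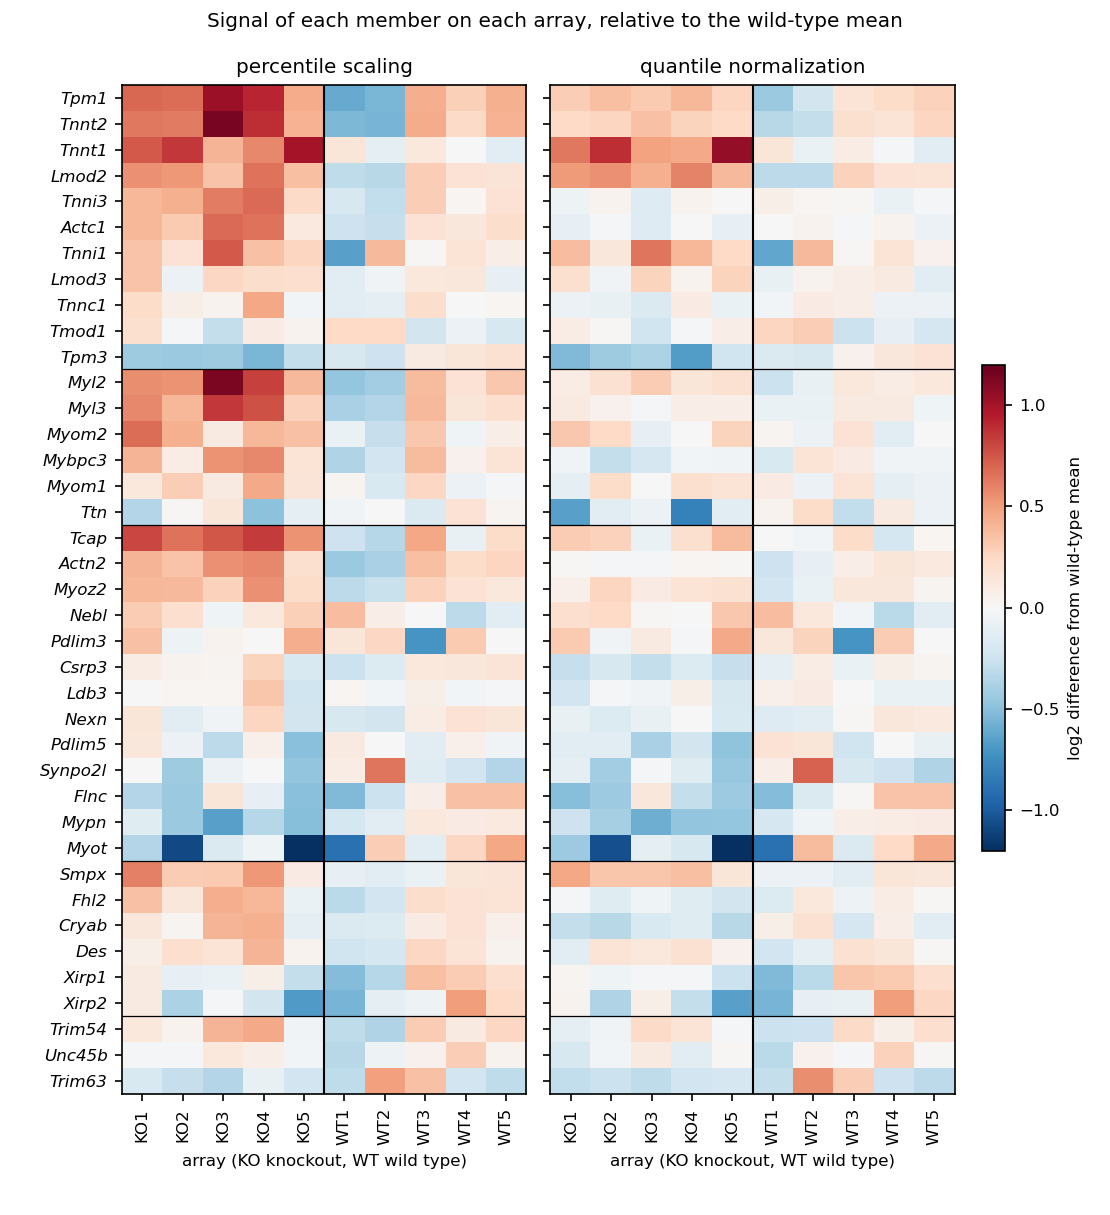
Signal of the 39 members (rows, grouped by role) on each array, as the log2 difference from the wild-type mean, with the 5 knockout arrays (KO1 to KO5) left of the 5 wild-type arrays (WT1 to WT5). Under percentile scaling WT1 and WT2 are lower than the other arrays in many rows, which is weaker after quantile normalization.

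The fold changes of the members moved with the signal of their probes. The 11 members with a mean signal of at least 8 (Actc1, Actn2, Cryab, Fhl2, Mybpc3, Myl2, Myl3, Tcap, Tnni3, Tnnt2 and Tpm1) had a median fold change of 0.47, all above 0, and 0.00 after quantile normalization, with 6 above 0. The 130 other genes in that range of signal had a median of 0.41, with 129 above 0, and of 0.00 after quantile normalization, with 65 above 0. On the second slide alone the medians were 0.30 for the 11 members and 0.25 for the 130 other genes. The upward offset of these members under percentile scaling was thus also present in other genes of like signal. The change of scaling lowered the fold changes of the 28 other members by -0.01 to 0.29 (a negative value is a rise) and those of these 11 by 0.37 to 0.51.

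In all 11 of these members, both wild-type samples on the first slide lay below each of the 8 other samples. The mean of wild-type samples 3 to 5 exceeded that of samples 1 and 2 by 0.27 to 0.96 in them, with a median of 0.49. In the 28 other members the median was 0.25, and wild-type samples 1 and 2 both lay below samples 3 to 5 in 15 of them. How often this held in genes that are not members was not counted. No member spot came near saturation, the highest on each array being at 38.5% to 46.0% of the saturation value in knockout and at 30.6% to 43.8% in wild type. Across the 39 members, which share arrays and are not independent, the correlation of mean signal with fold change was 0.44 under percentile scaling and -0.07 after quantile normalization, and 11 members changed sign between the 2.

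**Figure D5:**
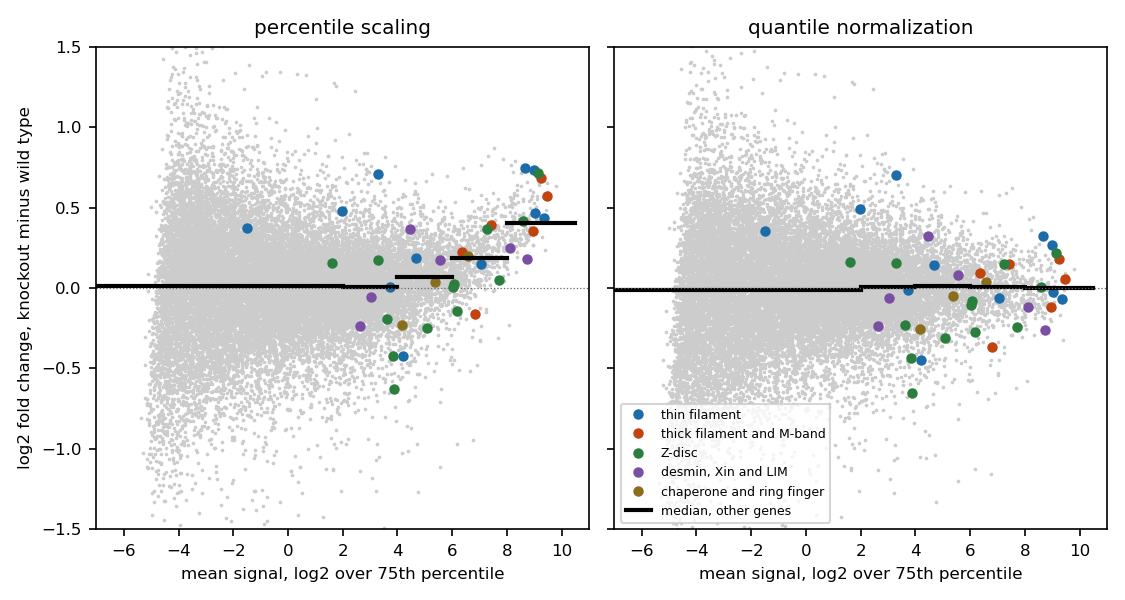
Log2 fold change (knockout minus wild type) against mean percentile-scaled signal for all genes (grey) and the 39 members (coloured by role), with the median of the other genes in each of 5 bands of signal (black); genes beyond 1.5 in either direction are outside the axis. Under percentile scaling the black line climbs to 0.41 in the band of highest signal, and after quantile normalization it stays near 0.

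Among 52 other sarcomere genes that are not members, all measured, 3 rose and none fell, or 5.77% against the 4.94% of all genes. They were Mylk4, a myosin light chain kinase family member (0.82 ± 0.19, limma adjusted p = 0.0393), Lrrc39, an M-band protein (0.38 ± 0.09, adjusted p = 0.0433), and Palld, the actin-bundling palladin (0.31 ± 0.08, adjusted p = 0.0479). After quantile normalization Mylk4 and Lrrc39 rose, Palld did not pass (adjusted p = 0.163), and Fhl1, a LIM-only protein bound to titin, fell by 0.44 (adjusted p = 0.0433). The median of these 52 genes was 0.03, or -0.01 after quantile normalization, against 0.18 and -0.03 for the 39 members. The calls of these 3 genes passed in 2, 2 and 1 of the 10 fits that left out a sample.

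Atrial markers varied widely between samples, with a list mean of 1.23 ± 1.25 in knockout samples, against 3.26 ± 2.45 in wild-type samples (exact permutation p = 0.135). All 4 were measured, and the log2 of their summed signal ran from 5.43 to 6.76 in knockout and from 5.38 to 7.58 in wild type. Nppa differed by 0.03, and Myl7, Myl4 and Sln by -3.13, -1.98 and -3.00, none of which passed the threshold. With the mean of Myl7, Myl4 and Sln alone, without Nppa, as a covariate in limma, no member passed, among 57 genes that did. The fold changes were then 0.64 for Tnnt1 (adjusted p = 0.0794), 0.73 for Tcap (adjusted p = 0.103) and -0.37 for Tpm3 (adjusted p = 0.167). Macrophage markers (9 of 9 measured) averaged 1.68 ± 0.25 in knockout samples, against 2.04 ± 0.10 in wild-type samples, with summed signals of 6.22 to 6.53 in knockout samples and 6.53 to 6.84 in wild-type samples (exact permutation p = 0.0159, adjusted 0.0381, but adjusted 0.0536 after quantile normalization). Endothelial markers (6 of 6) averaged 2.22 ± 0.12 in knockout samples, against 2.53 ± 0.04 in wild-type samples (exact permutation p = 0.00794, adjusted 0.0317, and 0.0357 after quantile normalization). Fat markers (4 of 5, without Adipoq) averaged -4.24 ± 0.81 in knockout samples, against -2.34 ± 1.67 in wild-type samples (exact permutation p = 0.0397, adjusted 0.068), and fibroblast, smooth muscle and erythroid lists had adjusted p of 0.219 to 0.389. The part of the macrophage, endothelial, fat, fibroblast, smooth muscle and erythroid lists in the members' values was not tested.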

How the data were processed

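Total RNA of 10 cardiac samples, 5 per genotype, was labelled with cyanine-3 and hybridised to 1-colour arrays, per the labels' protocols; groups and replicate numbers come from the sample titles. The deposited intensity of each spot was background-subtracted and detrended within its array by Agilent Feature Extraction 10.7.1.1, per the file headers and the submitters' processing notes. The authors also deposited a log2 value table of the same arrays, all of whose columns have a median of 4.75, as quantile normalization gives; its other steps are not given in these sources. The table served as an alternative.

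Here, log2 processed intensity minus the log2 75th percentile of each array was used. A probe was kept if well above background on at least 4 of 5 arrays of either genotype, and the kept probe of highest mean signal represented its gene, which gave 30692 probes and 20607 genes. Genotypes were compared with limma 3.58.1 (lmFit and eBayes, R 4.3.3), with Benjamini-Hochberg adjustment and a threshold of 0.05. The number of arrays limits the precision. Alternatives were quantile normalization, no scaling, normexp background correction (offset 50), the deposited table, no filter on dim probes, the mean of a gene's probes, replicate number or slide as a block, 1 slide only, an atrial marker covariate, leaving out each sample and, chosen after seeing the data, slide and row as terms, and quantile normalization for single probes and marker lists. For marker list means, a two-sided exact permutation test ran through 252 arrangements of the arrays. The members, lists and classes were chosen with earlier results of these data known. Every member is named; values on every array are given for members that passed the threshold or did not overlap, and for up to 3 more per role by smallest p. Probe and promoter positions are on different builds, mm9 and GRCm38.p6, and were not converted.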

Additional observations from a re-analysis of the deposited data

How the results depend on the processing

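Under percentile scaling 1017 genes, 3 members and 3 other sarcomere genes passed, with medians of 0.43 for the thin filament, 0.37 for the thick filament and 0.03 for the Z-disc. Without scaling between arrays 5911 genes passed (28.7%), 9 members and 18 other sarcomere genes, and the 3 medians were 0.01, -0.05 and -0.40. Normexp background correction gave 3111 genes (15.1%), 11 members (Tnnt2, Tnni3, Tnnt1, Tpm1, Lmod2, Myl2, Myl3, Tcap and Smpx higher, Tpm3 and Mypn lower) and 7 other sarcomere genes. With no filter on dim probes 173 genes passed and 0 members and 0 other sarcomere genes, and with the atrial marker covariate 57, 0 and 0. With slide and row as terms, in a fit with few samples to tell row from genotype, 0 genes, 0 members and 0 other sarcomere genes passed. At an unadjusted limma p under 0.05 stood 15 members with no filter on dim probes, 16 with the atrial covariate, 9 after quantile normalization or in the deposited table, 14 with no scaling, 7 with slide and row as terms and 16 with the replicate block. The second slide alone gave 458 genes and 2 members, Tnnt1 and Tpm3. Leaving out 1 sample at a time gave 282 to 940 genes, 1 to 2 members, 0 to 3 other sarcomere genes, and medians of 0.37 to 0.51 for the thin filament, 0.31 to 0.46 for the thick filament and -0.05 to 0.09 for the Z-disc.

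The thin filament median was 0.15 after quantile normalization and in the deposited table, 0.19 with the mean of all kept probes, 0.27 with slide as a block or the second slide alone, and 0.26 with slide and row as terms, and the thick filament median was 0.07 after quantile normalization and in the deposited table. The causes of these differences were not tested. Tnnt1 and Tpm3 kept their directions under all of these alternatives, but Tnnt1 did not pass with no scaling (0.29, adjusted p = 0.289), with no filter on dim probes (0.0546), with the replicate block (0.0682), with the atrial covariate (0.0794) or with slide and row as terms (0.264), and Tpm3 did not pass with no filter (0.0761), the mean of all kept probes (-0.29, 0.142), the replicate block (0.0963), the atrial covariate (0.167) or slide and row (0.165).

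With the replicate block 164 genes passed, 0 members and 0 other sarcomere genes. Deviations of samples with the same number correlated between -0.106 and 0.0495, and no knockout sample correlated best with the wild-type sample of its own number. Wild-type samples 1 and 2 lay on a slide without knockout samples, so these correlations cannot show whether same-numbered samples shared more than the number.

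The signs of some fold changes differed between alternatives. After quantile normalization these were Actc1 at -0.07, Tnni3 at -0.03, Tnnc1 at -0.06, Tmod1 at -0.01, Mybpc3 at -0.12, Ldb3 at -0.08, Csrp3 at -0.24, Nexn at -0.10, Cryab at -0.26, Fhl2 at -0.12 and Unc45b at -0.05. In the deposited table they were Actc1 at -0.08, Tnni3 at -0.02, Tnnc1 at -0.06, Tmod1 at -0.01, Mybpc3 at -0.12, Ldb3 at -0.08, Csrp3 at -0.24, Nexn at -0.10, Cryab at -0.26, Fhl2 at -0.12 and Unc45b at -0.05. Without scaling they were Tnnc1 at -0.27, Tnni1 at -0.05, Tmod1 at -0.42, Lmod3 at -0.24, Mybpc3 at -0.07, Myom1 at -0.20, Myom2 at -0.03, Actn2 at -0.01, Myoz2 at -0.05, Ldb3 at -0.40, Csrp3 at -0.37, Nebl at -0.25, Nexn at -0.42, Pdlim3 at -0.27, Des at -0.25, Cryab at -0.24, Smpx at -0.06, Fhl2 at -0.17, Unc45b at -0.39 and Trim54 at -0.22, with Lrrc39 at -0.04 and Palld at -0.11 among other sarcomere genes. With normexp they were Tmod1 at -0.07, Ldb3 at -0.05, Csrp3 at -0.03, Nexn at -0.06 and Unc45b at -0.04. With the atrial covariate Tmod1 was at -0.06 and Xirp1 at 0.05, and with the mean of all kept probes Myom1 was at -0.04, Ldb3 at -0.05 and Nexn at -0.0015. With slide as a block, and likewise on the second slide alone, Csrp3 was at -0.09, Nexn at -0.13, Synpo2l at 0.05, Unc45b at -0.09 and Trim54 at -0.02. With slide and row as terms Ldb3 was at -0.01, Csrp3 at -0.05, Pdlim5 at 0.17, Synpo2l at 0.25, Des at -0.08, Unc45b at -0.13 and Trim54 at -0.10. Leaving out 1 sample moved Tmod1 between -0.05 and 0.08, Csrp3 between -0.01 and 0.11, Nexn between -0.06 and 0.06, Ldb3 between -0.05 and 0.09, Pdlim3 between -0.02 and 0.24, Xirp1 between -0.19 and 0.03 and Unc45b between -0.05 and 0.11.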
